A study of Mus musculus with 10 samples.

Results

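The 10 genes described here are Scel, Perp and 8 genes of desmosomes and of the plaque proteins that bind them: Ppl, Evpl, Dsp, Jup, Pkp2, Pkp4, Dsg2 and Dsc2. They are measured by 23 of the 45037 probe sets tested, and each of the 23 names exactly 1 gene in the platform annotation. Their values come from isolated glomeruli, the filtering units of the kidney, of 10 male mice aged 27 days. The 5 mutant mice (Wt1 +/R394W) are knock-in heterozygotes that carry 1 R394W allele of Wt1 and 1 normal allele, and the 5 wild-type mice (Wt1 +/+) are their littermates. All were on the FVB/N strain after 4 generations of backcrossing, so some DNA of the earlier background can remain, and the mutants had little albumin in the urine and no mesangial lesions by light microscopy. A knock-in allele is carried by all cells, not by podocytes alone. Each mouse gave 1 array, and litters are not identified.

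Scel and Perp were chosen by their measured difference between these same 10 arrays, so their values are given as a description with no test. The 8 other genes, called partners below, were chosen for their function, and the question is whether they differ as well. Earlier results of these data were known when they were chosen, so the choice was not blind to these arrays. Every value is a log2 signal after RMA (robust multi-array average), the scale on which the table was deposited. A change is mutant minus wild type, taken between group means, and a called change has an adjusted p under 0.05 in limma over all probe sets. The table holds no detection calls, so the 95th percentile of 44 olfactory receptor probe sets, 6.22, was taken as a background level. A probe set below it in both genotypes is described as not above background, which does not mean that the transcript is absent. Cdh1, which encodes E-cadherin of tubules, is also below it. A signal above the level need not mean expression either, as the highest olfactory receptor probe set read 6.69.

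Desmosomes are junctions that tie the intermediate filaments of neighbouring epithelial cells together. Desmosomal cadherins (desmogleins and desmocollins) bridge the gap between cells, armadillo proteins (plakoglobin and plakophilins) bind their tails, and desmoplakin links this plaque to the filaments. Periplakin and envoplakin are relatives of desmoplakin. With sciellin they are known from the cornified envelope, the protein shell of skin keratinocytes. In podocytes, the epithelial cells of the glomerular filter, Scel is one of the characteristic transcripts, and the junction between cells is the slit diaphragm rather than a row of typical desmosomes.

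Glomerular markers were bright in both genotypes. All 7 measured podocyte markers were above background, and their mean per array ran from 12.80 to 13.11 in mutants and from 13.00 to 13.18 in wild types. Endothelial markers averaged 11.81 to 12.19 in mutants and 11.97 to 12.16 in wild types. The Wt1 transcript read 11.63 ± 0.16 (SD, n = 5) in mutants and 11.30 ± 0.17 (SD, n = 5) in wild types, and a missense allele need not alter it, so it does not check the labels. The arrays correlated at 0.985 to 0.997 over all probe sets, and 0 pairs were identical. Tubule transcripts were present in every preparation in differing amounts, as given with the partner results.

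Scel encodes sciellin, a protein that keratinocytes build into the cornified envelope. Its brighter probe set (1422837_at, chromosome 14) read 5.55, 5.27, 5.14, 5.48 and 5.84 in mutants 1 to 5, against 9.28, 9.19, 8.20, 9.40 and 9.01 in wild types 1 to 5. All 5 mutants lay below the background level and all 5 wild types far above it, with a gap of 2.36 between the highest mutant and the lowest wild type. The means were 5.45 ± 0.27 (SD, n = 5) in mutants and 9.02 ± 0.48 (SD, n = 5) in wild types, a change of -3.56 ± 0.21 (SE). The mutant signal is not above background, so this fitted change is no exact size. Set against the background level, wild types were at least 6.95-fold higher. This was the largest fall among 18193 genes, the contrast for which Scel was picked. Fewer cells that express a gene and less RNA per cell cannot be told apart in such bulk tissue.

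The second Scel probe set (1459426_at) was not above background in either genotype. It read 4.14 to 4.42 in mutants (median 4.37) and 4.21 to 4.72 in wild types (median 4.43), and the genotypes overlapped. Averaging both probe sets moves the Scel change to -1.85, since this probe set holds no signal to lose. Among wild types, mouse 3 had the lowest Scel signal of the bright probe set, and leaving it out gave a change of -3.77.

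An annotated start of Scel is shown because it is the member with the largest difference, beside one of Dsp, a partner whose values overlapped between genotypes. Wt1 encodes a zinc finger protein that binds DNA. Only sequence near annotated starts was read here, and sites elsewhere were not searched. Of the 10 genes, 4 have a window in the RefSeq promoter table of build GRCm38.p6, and each window runs from 250 bases before to 50 bases after an annotated start. The Scel window is chr14:103513091-103513390 (plus strand) and the Dsp window is chr13:38151044-38151343 (plus strand), printed 5′ to 3′ with capitals where a searched motif matches.
Scel: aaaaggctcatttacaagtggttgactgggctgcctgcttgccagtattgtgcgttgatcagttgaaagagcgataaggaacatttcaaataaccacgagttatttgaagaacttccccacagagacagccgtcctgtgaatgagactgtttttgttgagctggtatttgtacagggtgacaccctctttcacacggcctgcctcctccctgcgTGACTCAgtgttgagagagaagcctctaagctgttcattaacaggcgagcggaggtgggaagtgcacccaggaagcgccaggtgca
Dsp: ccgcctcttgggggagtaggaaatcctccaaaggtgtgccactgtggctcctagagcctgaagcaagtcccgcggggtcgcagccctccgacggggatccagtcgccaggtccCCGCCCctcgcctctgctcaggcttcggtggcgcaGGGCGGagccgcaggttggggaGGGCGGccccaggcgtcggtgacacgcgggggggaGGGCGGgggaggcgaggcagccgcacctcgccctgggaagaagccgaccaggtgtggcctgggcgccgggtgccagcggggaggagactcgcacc
The motifs were searched on both strands with no mismatch allowed. The WT1 motif GCGTGGGAG, the EGR and WT1 motif GCGGGGGCG, the repeat TCCTCCTCC and the TATA box TATAAA were found in neither window. Over all 32851 windows they occur in 0.472%, 2.91%, 3.03% and 13.6%. The GC box GGGCGG matched 4 times in the Dsp window and 0 times in the Scel window, and 35.7% of all windows hold it. Of the members not printed, Jup has it in its window and Pkp4 in one window but not in its other, and GCGTGGGAG was found in neither gene. The AP-1 motif TGACTCA, added after the sequence was read, is in the Scel window and in 5.20% of all windows. In G and C content, 40.5% of all windows lie at or under the Scel window and 94.5% at or under the Dsp window, which is 73.0% G and C where the median window has 52.7%. The start behind the Scel window lies 280 bases inside the outermost start annotated for the gene, so sequence before that outermost start was not searched. These matches describe the printed windows only, and no binding was measured.

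Perp encodes a membrane protein with several membrane spans that sits in desmosomes of stratified epithelia and is also known as an effector of p53-dependent cell death. Its single probe set (1416271_at, chromosome 10) read 10.18, 9.88, 9.80, 10.39 and 10.29 in mutants 1 to 5, against 7.43, 8.42, 7.997, 7.72 and 8.04 in wild types 1 to 5. All 10 values were above background, and the lowest mutant lay 1.38 above the highest wild type. The means were 10.11 ± 0.26 (SD, n = 5) in mutants and 7.92 ± 0.37 (SD, n = 5) in wild types, a change of 2.19 ± 0.18 (SE), which ranks eighth among the rises of 18193 genes. Leaving out 1 mouse at a time, the Perp change ranged from 2.06 to 2.31.

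**Figure D1:**
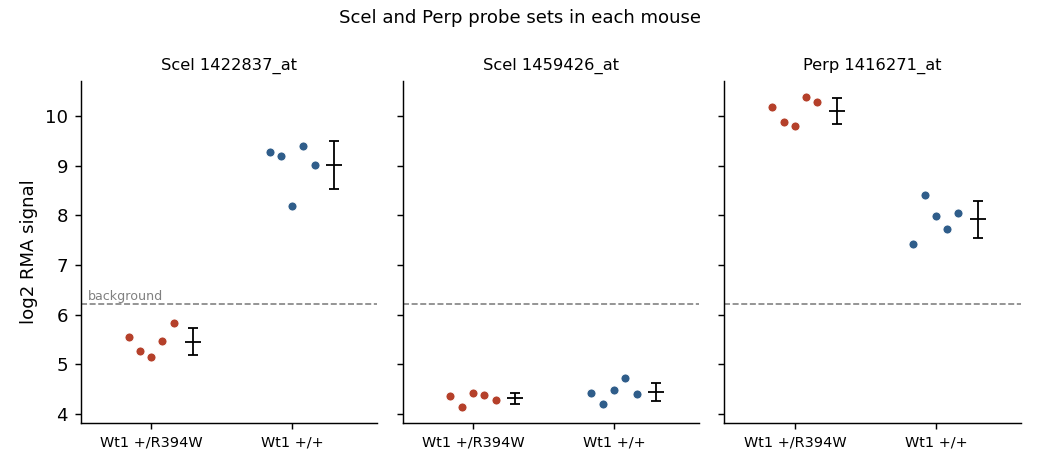
Log2 RMA signal of the Scel and Perp probe sets in each mouse, with 5 mutant mice (red) left of 5 wild-type mice (blue) in each panel and the mean and SD as a black bar. The bright Scel probe set lies below the dashed background level of 6.22 in all 5 mutants, the second Scel probe set lies below it in all mice, and Perp is above it in all mice and higher in every mutant.

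None of the 8 partners passed the test. Of their 20 probe sets, 0 were called higher and 0 lower (limma, adjusted p of at least 0.0862), where 0.853% of all probe sets were called, 0.391% higher and 0.462% lower. Their changes ran from -0.46 to 0.30, against -3.56 for Scel and 2.19 for Perp. With 1 probe set per gene the median change of the partners was -0.02, beside 0.00 for all 18193 genes. At an unadjusted p under 0.05 there were 5 partner probe sets, all lower in mutants and all of the plakophilin genes Pkp2 and Pkp4, where 9.36% of all probe sets reached that level in either direction and 4.62% did so downward. The genotypes did not overlap in 2 of the 20, both of Pkp2 and lower in mutants, against 2.78% of all probe sets in either direction and 1.48% downward. Of the 20, 10 were above background, and they cover 6 of the 8 genes. All 5 with an unadjusted p under 0.05 were among these 10, where 12.6% of all probe sets above background reached that level. The 5 report on Pkp2 and Pkp4 alone, so they are not separate evidence.

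**Figure D2:**
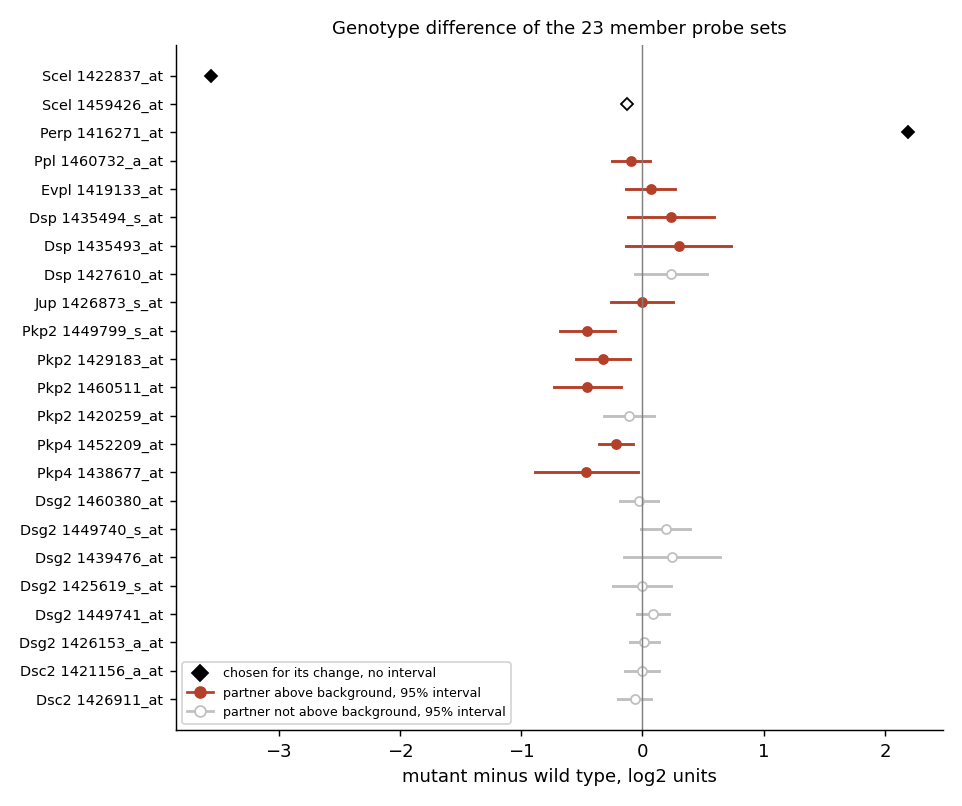
Change (mutant minus wild type, log2 units) of the 23 probe sets, with 95% intervals for the partners from limma and none for Scel and Perp, whose change was the reason for choosing them. Open symbols are probe sets not above background. The 20 partner changes lie between -0.46 and 0.30, and the intervals of 3 Pkp2 and 2 Pkp4 probe sets lie below 0 before adjustment.

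Desmoplakin (Dsp), the plakin that anchors filaments to the desmosome, varied more among mutants than among wild types. The probe set with the highest mean (1435494_s_at, chromosome 13) read 8.22, 8.73, 8.58, 8.03 and 8.89 in mutants 1 to 5, against 8.22, 8.20, 8.59, 8.23 and 8.04 in wild types 1 to 5. Mutants 2, 3 and 5 lay near or above the highest wild type, while mutants 1 and 4 lay within the wild-type range or just below it. Its change was 0.23 ± 0.16 (SE, limma, adjusted p = 0.725), with a 95% interval from -0.12 to 0.59. A second probe set (1435493_at) put the same 3 mutants highest and had a change of 0.30 ± 0.20 (SE, limma, adjusted p = 0.709). The third (1427610_at) was not above background. In the subset of neighbouring animal numbers (mutants 1 to 4 and wild types 2 to 4), the change of 1435494_s_at was 0.05.

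Envoplakin (Evpl, chromosome 11) and periplakin (Ppl, chromosome 16) form a heterodimer at the keratinocyte membrane. Evpl (1419133_at) ran from 7.12 to 7.58 in mutants (median 7.41) and from 7.19 to 7.52 in wild types (median 7.29), and the ranges overlapped almost fully. Its change of 0.07 ± 0.09 (SE, limma, adjusted p = 0.879) has a 95% interval from -0.14 to 0.27. Ppl (1460732_a_at) lay barely above background, from 6.16 to 6.43 in mutants (median 6.31) and from 6.29 to 6.54 in wild types (median 6.37). Its change was -0.09 ± 0.07 (SE, limma, adjusted p = 0.758), with a 95% interval from -0.25 to 0.06. All of these plakin intervals lie between -1 and 1 log2 unit. Near background, RMA compresses differences.

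Plakoglobin (Jup, chromosome 11), the armadillo protein shared by desmosomes and adherens junctions, was well above background and did not separate the genotypes. Its probe set (1426873_s_at) ran from 9.91 to 10.42 in mutants (median 10.24) and from 10.02 to 10.45 in wild types (median 10.08). The means were 10.15 ± 0.21 (SD, n = 5) in mutants and 10.16 ± 0.18 (SD, n = 5) in wild types. The 95% interval of the change, from -0.26 to 0.25, spans 0 almost evenly (limma, adjusted p = 0.996).

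Plakophilin 2 (Pkp2, chromosome 16), the armadillo protein of desmosomes in simple epithelia and heart, had the smallest p of the partners. Its brightest probe set (1449799_s_at) read 9.30, 9.69, 9.48, 9.06 and 9.44 in mutants 1 to 5, against 9.87, 9.87, 9.96, 9.78 and 9.75 in wild types 1 to 5. Every mutant lay below every wild type, by 0.06 at the closest pair, and mutant 4 was the lowest. Its change was -0.45 ± 0.10 (SE), 73.0% of the wild-type signal, with a 95% interval from -0.68 to -0.23. The adjusted p over all probe sets was 0.0862 (limma), above the threshold. The exact permutation test of this one value gave a two-sided p of 0.00794, the smallest that 5 mice against 5 allow.

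The other 3 Pkp2 probe sets also had negative changes. Probe set 1429183_at read 8.02 to 8.47 in mutants (median 8.31) and 8.41 to 8.74 in wild types (median 8.59), a change of -0.33 ± 0.10 (SE, limma, adjusted p = 0.265) with overlap at the edges. Probe set 1460511_at read 5.64 to 6.08 in mutants (median 6.001) and 6.09 to 6.74 in wild types (median 6.41), with no overlap, mutants below the background level and a change of -0.45 ± 0.13 (SE, limma, adjusted p = 0.190). In 1420259_at, which was not above background, the change was -0.11 ± 0.09 (SE). All 4 report on 1 transcript in the same mice, so they are not separate evidence. When the 4 were averaged into 1 value, Pkp2 passed (change -0.34, limma, adjusted p = 0.0244), and without mutant 2 the brightest probe set passed by itself (change -0.53, limma, adjusted p = 0.0363). In the other 17 alternatives that include this probe set its adjusted p lay between 0.0566 and 0.421.

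Plakophilin 4 (Pkp4, chromosome 2), a relative of p120 catenin found at both desmosomes and adherens junctions, was the brightest partner probe set by its own signal, which does not rank its abundance. Probe set 1452209_at read 10.41, 10.42, 10.41, 10.63 and 10.38 in mutants 1 to 5, against 10.70, 10.74, 10.63, 10.70 and 10.58 in wild types 1 to 5. Of the mutants, 4 lay below every wild type, and mutant 4 lay among them. Its change was -0.22 ± 0.06 (SE, limma, adjusted p = 0.226), with a 95% interval from -0.36 to -0.08. The second probe set (1438677_at) read 8.32 to 8.69 in mutants (median 8.52) and 8.40 to 9.73 in wild types (median 9.01). Its change of -0.46 ± 0.19 (SE, limma, adjusted p = 0.480) moved to -0.28 without wild type 2, the highest value. Pkp4 shares chromosome 2 with Wt1, and a part for sequence linked to the knock-in allele was not tested.

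The desmosomal cadherins of the group gave no usable signal. The 6 probe sets of desmoglein 2 (Dsg2, chromosome 18) had means of 3.92 to 4.89, and the 2 of desmocollin 2 (Dsc2, chromosome 18) had means of 3.23 and 4.46. The olfactory receptor probe sets have a median of 4.65 and a lowest value of 3.55, so 1 Dsc2 probe set lies below all of them. Both are the forms known from simple epithelia. Their changes ran from -0.03 to 0.24 for Dsg2 and from -0.07 to -0.01 for Dsc2, and the smallest adjusted p was 0.564 (limma, Dsg2 1449740_s_at). At such signals a difference in these 2 genes cannot be told from background.

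**Figure D3:**
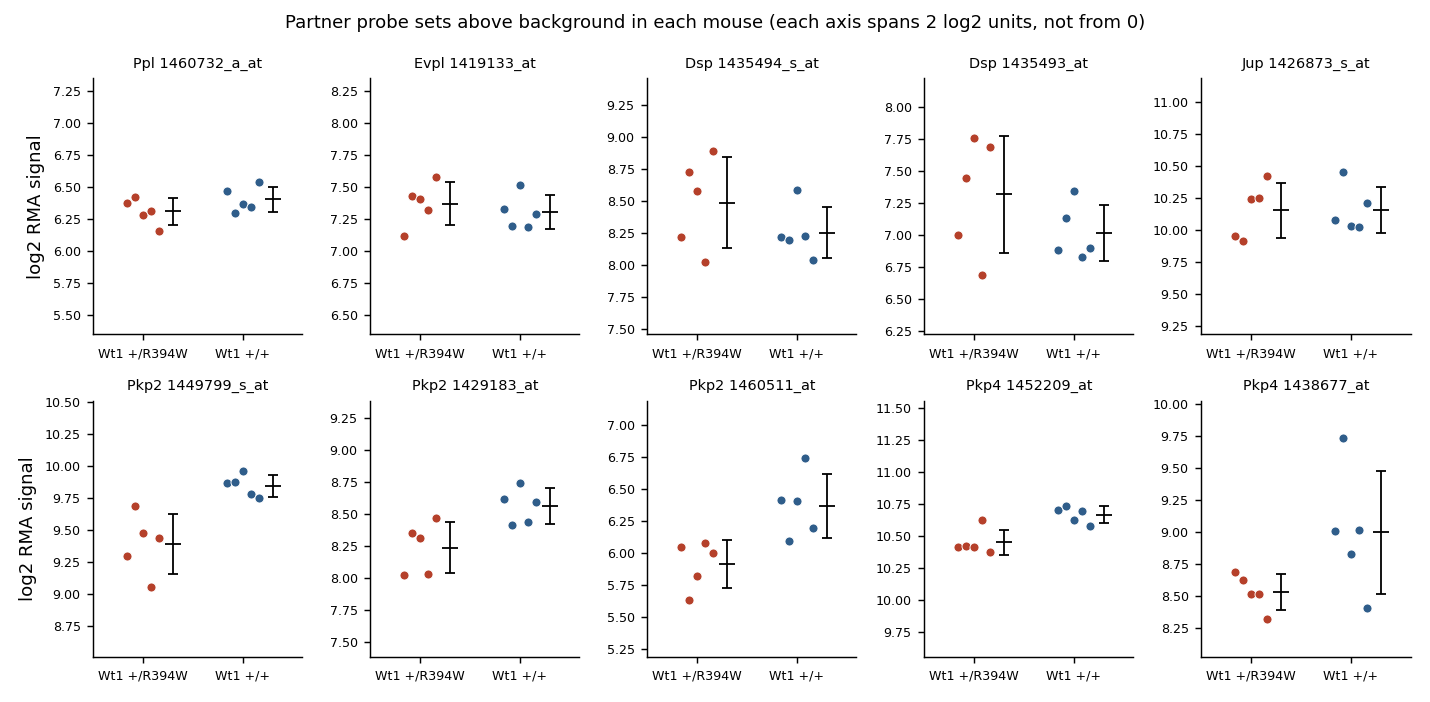
Log2 RMA signal of the 10 partner probe sets above background in each mouse, with 5 mutants (red) left of 5 wild types (blue) and the mean and SD as a black bar. Each panel spans 2 log2 units. Pkp2 1449799_s_at and 1460511_at have all mutants below all wild types, Pkp4 1452209_at has 4 of 5 below, and the Ppl, Evpl, Dsp and Jup panels overlap.

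Junction genes outside the 10 members were read through 9 lists with 104 measured genes, 1 probe set per gene, and 1 gene was called. Over all genes 1.26% were called, and 0.698% were called lower. That gene is Dst, which encodes dystonin, a plakin whose epithelial form anchors keratins to hemidesmosomes. It read 10.26, 9.94, 10.25, 10.37 and 10.22 in mutants 1 to 5, against 10.76, 10.65, 10.64, 10.75 and 10.65 in wild types 1 to 5 (1423626_at, chromosome 1). All mutants lay below all wild types, and the change was -0.48 ± 0.08 (SE, limma, adjusted p = 0.0174). The adjusted p was 0.0538 without wild type 1, 0.0546 without wild type 4 and 0.229 with the mice of close animal numbers. With the 4 Dst probe sets averaged the change was -0.23 (adjusted p = 0.114), and of the 3 others only 1421276_a_at was above background (-0.31 ± 0.11 SE, adjusted p = 0.379).

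Of the other plakins, the large cytolinker genes Plec (-0.21 ± 0.11 SE) and Macf1 (-0.08 ± 0.10 SE) did not pass (limma, adjusted p = 0.581 and 0.874), and the list of 4 had a median change of -0.14. Among 6 other desmosomal genes 0 were called and 2, the plakophilins Pkp1 and Pkp3, were above background. The desmocollins Dsc1 (0.16 ± 0.10 SE) and Dsc3 (0.08 ± 0.07 SE), both below background, had the smallest p of that list, whose median was 0.03. Among 18 cornified envelope genes 0 were called, 6 were above background and the median change was 0.00. In that list 9 genes had positive and 9 negative changes, and the 2 with the smallest p were lower in mutants. Tchh, which encodes trichohyalin, changed by -0.44 ± 0.11 (SE, limma, adjusted p = 0.131) below background. Lor, which encodes loricrin, changed by -0.35 ± 0.13 (SE, limma, adjusted p = 0.357) and was below background in mutants.

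The filaments and the neighbouring junction also held no called gene. Among 13 intermediate filament genes the median change was 0.00, with Krt7, a keratin of simple epithelia, at -0.46 ± 0.14 (SE, limma, adjusted p = 0.230) and Des, which encodes desmin, at -0.15 ± 0.08 (SE, limma, adjusted p = 0.626). Among 20 adherens junction genes the median was 0.01. Cdh11, a cadherin of mesenchymal cells, changed by 0.95 ± 0.29 (SE, limma, adjusted p = 0.252), and passed only without wild type 5. Cdh2, N-cadherin, changed by -0.37 ± 0.14 (SE, limma, adjusted p = 0.402).

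Lists that touch Perp from other sides held 0 called genes. Among 6 genes of the PMP22 and EMP family, small membrane proteins of the wider family that includes Perp, Emp2 changed by 0.41 ± 0.09 (SE, limma, adjusted p = 0.0866) and Pmp22 by 0.19 ± 0.10 (SE, limma, adjusted p = 0.594). Emp2 passed only with the tubule score as a covariate. Among 18 p53 response genes 0 were called and the median was 0.01. The death-associated genes Eda2r (0.41 ± 0.14 SE) and Pmaip1 (0.36 ± 0.14 SE), both below background, had the smallest p (limma, adjusted p = 0.323 and 0.422).

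Among 13 epithelial transcription factors, several of which drive desmosome and envelope genes in skin, 0 were called, 5 were above background and the median was -0.11. Ehf (-0.30 ± 0.09 SE) and Ovol2 (-0.17 ± 0.08 SE) lay below background. Among 6 transcription factors of epithelial to mesenchymal transition 0 were called and the median was 0.07, with Snai1 at -0.26 ± 0.09 (SE, limma, adjusted p = 0.344) and Twist1 at 0.28 ± 0.14 (SE, limma, adjusted p = 0.581). Ehf, Ovol2 and Snai1 share chromosome 2 with Wt1, and here too a part for linked sequence was not tested. Over the 8 lists without a called gene, 12 of 100 genes had an unadjusted p under 0.05 in limma, near the shares of 9.36% over all probe sets and 12.6% over those above background. These shares count probe sets, while the lists hold 1 probe set per gene. The count leaves out the other plakins, the list with the called gene Dst, where 1 of 4 genes reached that level.

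**Figure D4:**
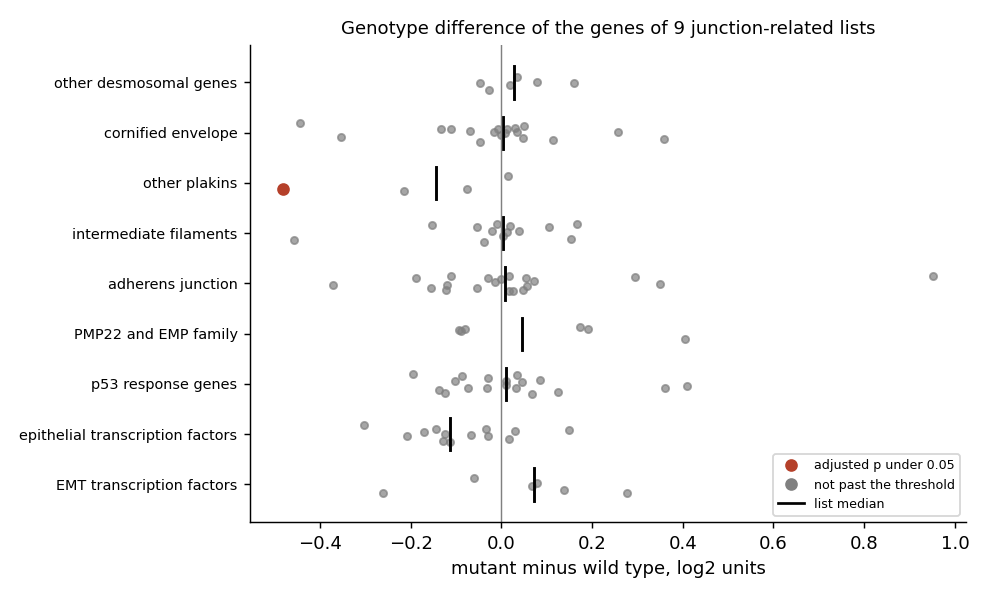
Change (mutant minus wild type, log2 units) of every measured gene of 9 junction-related lists, 1 point per gene, with the list median as a black bar. Dst, at -0.48, is the called gene, and the list medians lie between -0.14 and 0.07.

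Tubules express many of these epithelial genes, so their amount is given beside the partners. The tubule score averages the proximal-tubule and distal-nephron list means, and it was 8.72, 8.44, 8.10, 9.20 and 6.74 in mutants 1 to 5, against 8.50, 7.85, 8.38, 8.50 and 6.66 in wild types 1 to 5. The proximal list (16 of 16 genes above background) averaged 7.31 to 10.71 in mutants and 7.10 to 9.67 in wild types. Its median change was 0.46, with 14 genes higher and 2 lower in mutants and 0 called. The distal list (11 of 16) averaged 6.18 to 7.70 in mutants and 6.21 to 7.64 in wild types. Its median change was 0.13, with 11 genes higher and 5 lower in mutants and 0 called. Among mutants, Dsp was highest (8.89) in mutant 5 with the lowest score and lowest (8.03) in mutant 4 with the highest score. Among wild types, mouse 5 had the lowest score and also the lowest Dsp signal (8.04). With the score as a covariate 0 partner probe sets were called. The changes were then -3.54 for Scel, 2.21 for Perp, 0.27 for Dsp, -0.44 for Pkp2 and -0.49 for Dst, against -3.56, 2.19, 0.23, -0.45 and -0.48 without it.

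Epithelial cells other than tubules and podocytes were read from further marker lists. Of 8 measured keratinocyte markers 3 were above background (Krt5, Krt10 and Lor). Krt5 was barely so (6.24 in mutants, 6.22 in wild types), and Lor was so in wild types only (6.04 in mutants, 6.39 in wild types). The list averaged 5.65 to 5.77 in mutants and 5.66 to 5.86 in wild types. Urothelial and papillary markers (4 of 7 above background) averaged 6.33 to 6.43 in mutants and 6.40 to 6.48 in wild types. Parietal epithelial markers (4 of 6) averaged 6.90 to 7.27 in mutants and 7.01 to 7.14 in wild types, a mean over unlike members. Cldn1, a tight junction claudin, was 10.02 ± 0.76 in mutants and 9.35 ± 0.66 in wild types (SD, n = 5 each), with overlap. Ncam1, a cell adhesion molecule, was 8.15 ± 0.24 in mutants and 8.62 ± 0.12 in wild types (SD, n = 5 each), with no overlap and a change of -0.48 ± 0.11 (SE, limma, adjusted p = 0.0944).

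Marker lists of other cell types held called genes as well, Csf1r and Slc25a37. Over all genes 1.26% were called, and 0.698% were called lower. Csf1r, a macrophage receptor, read 8.24 to 8.78 in mutants and 8.93 to 9.98 in wild types, a change of -0.99 ± 0.17 (SE, limma, adjusted p = 0.0220). It was 1 of 9 leukocyte genes called, 6 of the 9 were above background, Itgam, Cd68 and Cd79a were not, and the list averaged 6.51 to 7.41 in mutants and 6.68 to 7.73 in wild types. Of the 9, 5 had positive and 4 negative changes, with a median of 0.02, so the list as a whole did not follow Csf1r. Slc25a37, a mitochondrial iron carrier, read 8.57 to 8.97 in mutants and 9.14 to 9.76 in wild types, a change of -0.59 ± 0.12 (SE, limma, adjusted p = 0.0436). It was 1 of 4 erythroid genes called, and that list, with 3 of 4 above background and a median change of -0.49, averaged 6.66 to 7.11 in mutants and 7.13 to 7.82 in wild types, without overlap. Of the 4, 3 had negative changes, and the globin gene Hba-a1, not above background, had a positive change of 0.10 ± 0.08 (SE). The mesangial and smooth muscle list, with 7 of 7 above background and 0 called, averaged 11.28 to 11.62 in mutants and 11.01 to 11.39 in wild types. In it 5 genes had positive and 2 negative changes, with a median of 0.12. The actin gene Acta2 changed by 0.89 ± 0.27 (SE, limma, adjusted p = 0.243) and Tagln by 0.77 ± 0.28 (SE, limma, adjusted p = 0.369). The 2 negative changes were those of Pdgfra (-0.28 ± 0.21 SE) and Pdgfrb (-0.12 ± 0.16 SE), so the list did not move as a whole. Of the 7 podocyte markers, 6 had negative changes and 0 were called, with a median of -0.08. At an unadjusted p under 0.05 (limma) there were 3. Kirrel (-0.33 ± 0.11 SE) and Synpo (-0.24 ± 0.09 SE) were lower in mutants, and Cdkn1c (0.26 ± 0.08 SE) was higher. The part of these cells in the Scel, Perp, Pkp2 and Dst values was not tested.

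**Figure D5:**
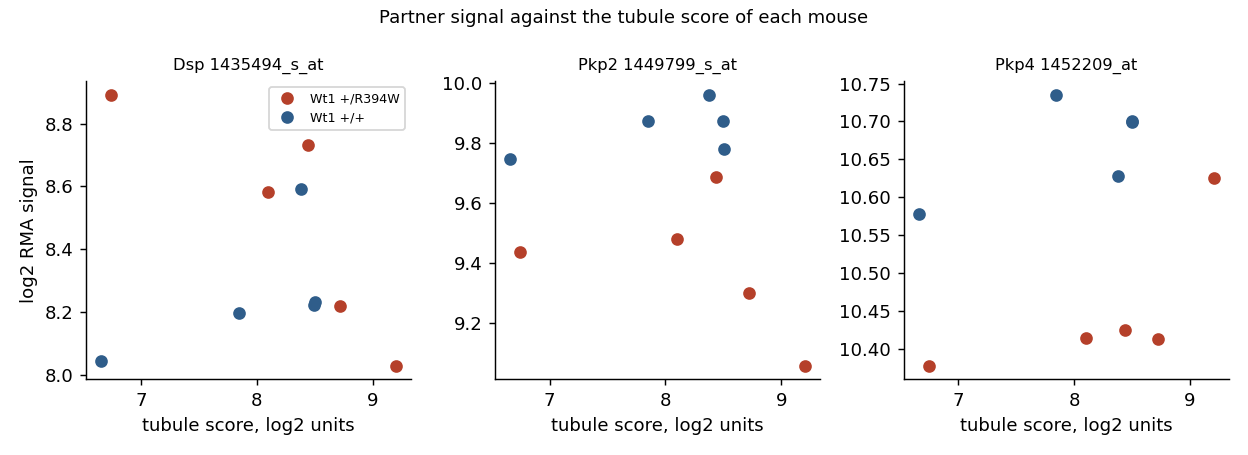
Log2 RMA signal of Dsp 1435494_s_at, Pkp2 1449799_s_at and Pkp4 1452209_at (vertical axes, not from 0) against the tubule score (mean log2 signal of the proximal and distal markers) of each mouse, mutants in red and wild types in blue. Pkp2 is lower in each mutant than in each wild type across the range of scores, while Dsp overlaps between genotypes.

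Scel lay below background in all 5 mutants, so its deviations there are background signal, and its likeness to other genes has little meaning in those arrays. The deviations of Scel and Perp from their genotype means had a Pearson r of 0.047 over the 10 arrays. Ranked by this measure over 11744 genes above background, the genes most like Scel were Stip1 (r = 0.963), Atpsckmt (r = 0.955) and Manf (r = 0.941). Stip1 encodes a co-chaperone and Manf a protein of the endoplasmic reticulum. The genes most like Perp were Slc52a3 (r = 0.892), Zdhhc9 (r = 0.878) and Lztr1 (r = 0.876). Without the 2 arrays farthest from the median these values were 0.860, 0.884 and 0.801 for Scel and 0.859, 0.801 and 0.899 for Perp. As the top of a ranking over 11744 genes and 10 arrays they carry no test. Of the partners, Jup had the highest r with Perp (0.60) and Pkp2 and Ppl lay at -0.39 and -0.40.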

How the data were processed

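Glomerular RNA of 10 mice was hybridised to 1 array each. The log2 values were deposited by the authors after RMA, per the submitters' processing notes, whose version and settings, like the genome build, were not given in the sources used here. RMA equalises array distributions and compresses changes near background. Genotypes came from the labels, replicate numbers only name mice in accession order, and 0 columns belonged to other samples. Of 45101 probe sets, 64 controls were left out. List genes were read from the probe set of highest mean signal, and all probe sets of the members were used.

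The genotypes were tested in R (version 4.3.3) using limma (version 3.58.1) without covariates, with Benjamini-Hochberg adjustment over 45037 probe sets, and two-sided p-values. Exact permutation tests ran over all 252 arrangements. In simulated data, changes of 0.5, 1 and 2 log2 units were added to randomly chosen members of the 45037 probe sets. Of these changes 52.0%, 92.3% and 99.2% were recovered, with 5.17%, 3.55% and 5.06% of calls false. The noise was drawn independently for each probe set. Variation that probe sets share, such as tubule content, was therefore not simulated, and the rates need not hold for these arrays. Members and lists were chosen with earlier results of these data known. Named list genes are called genes and the 2 with the next smallest p. The number of arrays limits the precision. Chromosomes come from the RefSeq table of GRCm38.p6. Alternatives covered scaling, a low-signal filter, variance models, array weights, a tubule covariate, probe set choice, gene means, mice with close animal numbers and each mouse left out. Figures used matplotlib (version 3.10.9).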

Additional observations from a re-analysis of the deposited data

Results flagged for a closer look

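In 6 of the 88 groups of 5 mice examined (member probe sets, named genes and the tubule score), 1 mouse lay apart from the other 4 by Dixon's test, where chance gives about 1 in 20. Among the members, Dsp 1427610_at was 5.43 in mutant 5 with the next mutant at 4.84, a probe set not above background. Pkp4 1452209_at was 10.63 in mutant 4, with the other mutants at 10.38 to 10.42. Dsg2 1425619_s_at was 4.43 in wild type 4 with the next wild type at 3.99, also not above background. Among the list genes, Dsc3 was 5.33 in mutant 2 against 5.42 in the nearest mutant. Des was 10.87 in mutant 3 against 10.50, and Cdh11 was 10.16 in wild type 5 against 9.03.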

How the results depend on the processing

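In all 20 alternatives Scel stayed lower and Perp higher in mutants. Of these, gene means moved Scel to -1.85, and leaving out 1 mouse gave -3.77 to -3.46 for Scel and 2.06 to 2.31 for Perp. The gene mean of Scel includes a probe set below background. Partner calls numbered 0 except 1 lower with gene means (Pkp2) and 0 to 1 with a mouse left out. The median partner change ranged from -0.05 to -0.01. List genes called numbered 2 with the tubule covariate, 0 with gene means, 0 with mice of close animal numbers and 0 to 2 with a mouse left out (none without wild type 1 or 4, Tchh added without mutant 4, Cdh11 added without wild type 5). All called probe sets numbered 384, 110 with mice of close animal numbers and 216 to 301 with a mouse left out, of which 216 was without wild type 4 and 242 without wild type 1. Changes near 0 turned sign: Jup to 0.0028 with centring and 0.03 with the tubule covariate, Dsc2 to 0.0016 with quantile normalization, Dsg2 to 0.0833 with gene means and 0.0090 with close animal numbers, and Ppl to 0.0126 with close animal numbers. With a mouse left out, Jup ran from -0.0694 to 0.0706, Dsc2 from -0.0383 to 0.0276 and Dsg2 from -0.064 to 0.0048. The causes were not tested. No paired analysis was possible because the labels give animal numbers and no litters. Signal near background limits Ppl, Dsg2, Dsc2 and mutant Scel.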
